A study of Mus musculus with 16 samples.

Results

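The comparison is of 2 RNA-seq libraries from mouse 8-cell embryos that had received sperm RNA as zygotes, 2 of the 16 samples of the series. One library came from embryos injected with the 30 to 40 nt RNA of sperm from males on a high-fat diet (HFD), the other from embryos injected with the same size fraction from males on a normal diet (ND). The sperm donors were C57BL/6J mice, bought at 5 weeks of age and divided at random between the diets, and the zygotes were of ICR background, from superovulated 6-week-old females. RNA was injected at 2 ng per microlitre, embryos were cultured in M16 and then KSOM medium, the zona pellucida was removed with acid, and 5 embryos were pooled for each Smart-Seq2 library about 56 h after injection. Late blastocysts (about 75 h) were sampled in the same way, 1 pool of 5 embryos for each RNA, and are used here only as a second view of the same genes. Embryos injected with water, which the protocol mentions, were not analysed here. Since every group is 1 library of pooled embryos, no difference below can be set against a spread between replicates and none carries a test. A pool also cannot tell fewer cells from less RNA per cell.

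Of 23976 gene symbols listed once in each table, 3688 genes had a mean of at least 10 FPKM (fragments mapped to a transcript, divided by its length and by the size of the library) over both 8-cell libraries and a valid status, and these are the measured genes. Values are given as deposited FPKM, ND first and HFD second. Differences are of log2 of scaled FPKM plus 1, HFD minus ND, after both libraries were scaled so that the median ratio of the measured genes was 1. The median log2 ratio before scaling was -0.34. The ND library summed to 616638 FPKM over 13667 genes above 0 and the HFD library to 524019 FPKM over 14721 genes, and the number of reads behind a value is not known. The stage label was checked against markers. Of 10 markers of 8-cell blastomeres, 9 were at 1 FPKM or more in both libraries, led by Dppa3 (7651 and 8359 FPKM). Dppa3 was also high in blastocysts, at 4620 and 4230 FPKM, so it does not separate the stages. Of 8 markers of late trophectoderm, the keratin gene Krt18 (24.5 and 14.1) and Krt8 (11.3 and 12.2) were the best known, against 784 FPKM or more for each in both blastocyst libraries, and Cdx2 was at 0.122 and 0. The 9 cumulus cell markers summed to 0.346 and 0.0946 FPKM, with 7 at 0 in each library. The 7 sperm markers summed to 6.68 and 3.27 FPKM, and of the blood markers the alpha globin gene Hba-a1 was at 26.8 and 16.8 FPKM with the beta globin genes and Ptprc at 0.

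In the mouse the 8-cell embryo lives on its own transcripts. Maternal RNA has mostly been cleared and the embryonic genome has been switched on at the 2-cell stage. Around the 8-cell stage the blastomeres flatten against each other, gain polarity, and begin to differ in position, which later separates trophectoderm from inner cell mass, while ribosomes and mitochondrial enzymes are built up for the blastocyst. The RNA that was injected belongs to the size class of sperm tRNA fragments, the 5′ parts of tRNAs cut in the anticodon loop.

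The 4 sequences that stood highest in the sequenced 30 to 40 nt sperm fractions, among those also present at 10 RPM (reads scaled to the total of the library) or more in both whole sperm libraries, are shown because they are the best view in these data of what such a preparation holds. No label says that the sequenced RNA was the injected preparation. Capitals mark the bases that end both the first and the fourth sequence, and the first bases of that run where they end the second.
5′ part of a valine tRNA: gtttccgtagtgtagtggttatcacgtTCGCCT
5′ part of a glycine tRNA, shorter form: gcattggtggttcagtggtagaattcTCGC
Start of 28S ribosomal RNA: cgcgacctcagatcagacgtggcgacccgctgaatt
5′ part of a glycine tRNA, longer form: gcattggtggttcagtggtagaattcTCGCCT
The names are background knowledge of these RNAs, not an alignment. The valine tRNA part, 33 nt long, made up 228582 RPM of the ND fraction and 116048 RPM of the HFD fraction, a ratio of 0.508 (95% exact binomial interval 0.507 to 0.509, counting error only). The glycine part of 30 nt had 61524 and 32514 RPM, and its form of 32 nt had 29626 and 30034 RPM. The ribosomal fragment of 36 nt stood the other way, at 11871 and 59644 RPM, a ratio of 5.02 (4.99 to 5.06). The fractions given by the ND and HFD males thus differed in these leading sequences by more than counting error, in 1 library each. In the whole sperm libraries, ND first, the valine part was at 2429 and 2192 RPM. The glycine part of 30 nt was at 359 and 487 RPM there, the opposite direction, and its form of 32 nt at 49.7 and 107. The ribosomal fragment was at 454 and 1326 RPM, the same direction as in the fractions.

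Among the 3688 measured genes, 134 (3.63%) were at least 1 log2 unit higher after HFD RNA, which is 2-fold on this scale, and 38 (1.03%) were at least 1 log2 unit lower, 4.66% in either direction. Of the measured genes 82.1% lay within 1.5-fold. Without scaling the counts were 72 higher and 183 lower, and with both libraries scaled to the same summed FPKM they were 106 and 71, so the balance of the directions depends on the scaling. Differences of 2 log2 units or more were found for 27 genes upward and for 1 downward, Snora78. The higher genes were spread over all levels: they made up 3.68% of genes with a mean of 10 to 30 FPKM and 5.22% of genes at 300 FPKM or more. Of the 38 lower genes, 17 were under 10 FPKM in the HFD library, and of the 134 higher genes 35 were under 10 FPKM in the ND library. The genes nearest to the limit on the higher side were Amd1 (1.00) inside and Cdc34 (0.99) outside, and on the lower side Fbxo8 (-1.01) inside and Vta1 (-0.997) outside.

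**Figure D1:**
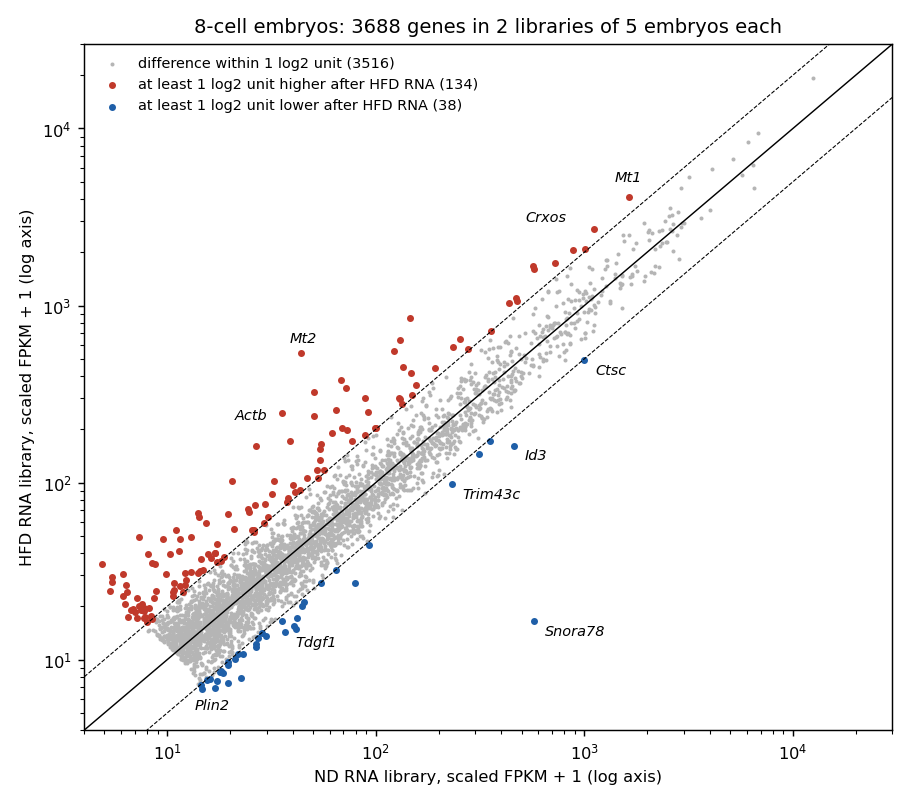
Scaled FPKM plus 1 of 3688 genes in the ND RNA library (x axis) and the HFD RNA library (y axis) of 8-cell embryos, both axes on a log scale. Each point is 1 gene; the solid line marks equality and the dashed lines a difference of 1 log2 unit. The 134 higher genes reach from low to high levels, and Snora78 lies alone far below the line.

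The largest upward difference belonged to a metallothionein. Metallothioneins are small cysteine-rich proteins that bind zinc and copper and are induced by metals through the factor Mtf1. Mt2 (chr8:94172618-94173567, mm10) was at 47.8 FPKM after ND RNA and 477 after HFD RNA, a difference of 3.62. Its neighbour Mt1, the more abundant of the pair, was at 1845 and 3660 FPKM (1.32). Blastocysts had 76.2 FPKM of Mt2 after ND RNA and 61.2 after HFD RNA, so the 8-cell HFD library alone was high. Mt1 in blastocysts was at 2623 and 3789 FPKM, higher after HFD RNA there too (0.72). The 250 bases before each start are shown because Mt2 leads the comparison, with Mt1 beside it, and promoters of this pair are known to hold metal response elements. The windows are from RefSeq (GRCm38.p6), plus strand, and capitals mark matches of TGCNCNC on either strand.
Mt2, chr8:94172368-94172617: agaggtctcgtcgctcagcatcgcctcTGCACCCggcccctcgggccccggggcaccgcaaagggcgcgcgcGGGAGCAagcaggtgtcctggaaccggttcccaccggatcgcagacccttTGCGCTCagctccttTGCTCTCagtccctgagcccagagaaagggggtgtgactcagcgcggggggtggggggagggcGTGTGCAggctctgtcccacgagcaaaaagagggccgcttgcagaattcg
Mt1, chr8:94178839-94179088: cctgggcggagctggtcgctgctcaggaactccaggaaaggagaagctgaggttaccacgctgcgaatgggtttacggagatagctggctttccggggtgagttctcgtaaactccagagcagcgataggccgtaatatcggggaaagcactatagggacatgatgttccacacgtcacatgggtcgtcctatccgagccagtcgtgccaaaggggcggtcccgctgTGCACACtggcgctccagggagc
The window of Mt2 held 5 matches, 3 on the plus strand and 2 on the minus strand, and that of Mt1 held 1. Of 32851 promoters in the table, 44.4% held at least 1 match in the same window and 0.344% held 5 or more. Only the 250 bases before each annotated start were searched, so matches elsewhere were not counted and the counts do not compare whole promoters. A match is a description of letters, and binding was not measured.

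Most other antioxidant genes did not share that difference. Of the 19 measured genes of the antioxidant and metal list, 9 were above 0 and 3 past 1 (Mt2, Mt1 and Sod1), with a median of -0.20. The median stayed below 0 under each of the 4 other scalings, none of which raised values enough to change that. It was 0.06 at a mean of at least 1 FPKM (15 of 28 above 0, 5 past 1), at a mean of at least 30 FPKM (9 of 17 above 0) and with no filter (16 of 29). Sod1, the cytosolic superoxide dismutase, was at 99.1 and 268 FPKM (1.76), while blastocysts had 189 and 168. The ferritin subunit genes Ftl1 (2012 and 1388 FPKM) and Fth1 (1259 and 805) differed by -0.20 and -0.31. Gpx2, a glutathione peroxidase outside the list, was at 4.85 and 20.9 FPKM (2.20). The zinc importer gene Slc39a1, singled out after its values were seen, was at 34.6 and 76.0 FPKM (1.44).

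Ribosomal protein genes were the largest group on the higher side. Of 81 measured members of both subunits, 66 were above 0 and 17 were past 1 (21.0%, beside 3.63% of all measured genes), with none past -1 and a median difference of 0.43. The median stayed above 0 under each of the 4 other scalings, at 0.09 without scaling, where 48 of the 81 were above 0. Rps7, a protein of the small subunit, was at 75.8 FPKM after ND RNA and 335 after HFD RNA (2.46), Rps29 at 146 and 570 (2.29) and Rpl38, of the large subunit, at 79.8 and 304 (2.25). In both blastocyst libraries these 3 genes were close to the 8-cell ND level: Rps7 at 84.9 and 60.3 FPKM, Rps29 at 138 and 122, and Rpl38 at 85.1 and 83.9. The 8-cell HFD library was thus the one that stood apart for them.

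The most abundant ribosomal protein genes did not take part to that extent. Rpl41, the gene with the highest FPKM in both 8-cell libraries, was at 14048 and 17069 (0.62), and Rpl35 at 4595 and 5281 (0.54). Rps2 (7290 and 4089 FPKM, -0.50) and Rpl4 (2160 and 1215, -0.49) were the lowest of their subunits. The 17 members past 1 had a median of 214 FPKM in the ND library, and the other members 1605 FPKM. Ribosomal protein genes were therefore split, after these values were seen, by their mean in blastocysts, which played no part in the 8-cell difference. Of 14 members with a blastocyst mean under 300 FPKM, 9 were past 1 and the median difference was 1.20, while of 67 at 300 FPKM or more 8 were past 1 and the median was 0.36. Of the 17 members past 1, 12 were above 0 in blastocysts, with differences from -0.30 to 0.59 and a median of 0.12 there. Over all measured members, 30 of 33 of the small subunit and 41 of 48 of the large were above 0 in blastocysts. Their medians there were 0.35 and 0.24, so the members past 1 did not stand out upward at that stage. Many of these genes have near-identical pseudogene copies, and how reads were shared among copies is not given in the sources used here. Rps15 lies in a listed locus that overlaps 48 other genes, so its value is uncertain, as is that of Rpl38, which overlaps 4.

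**Figure D2:**
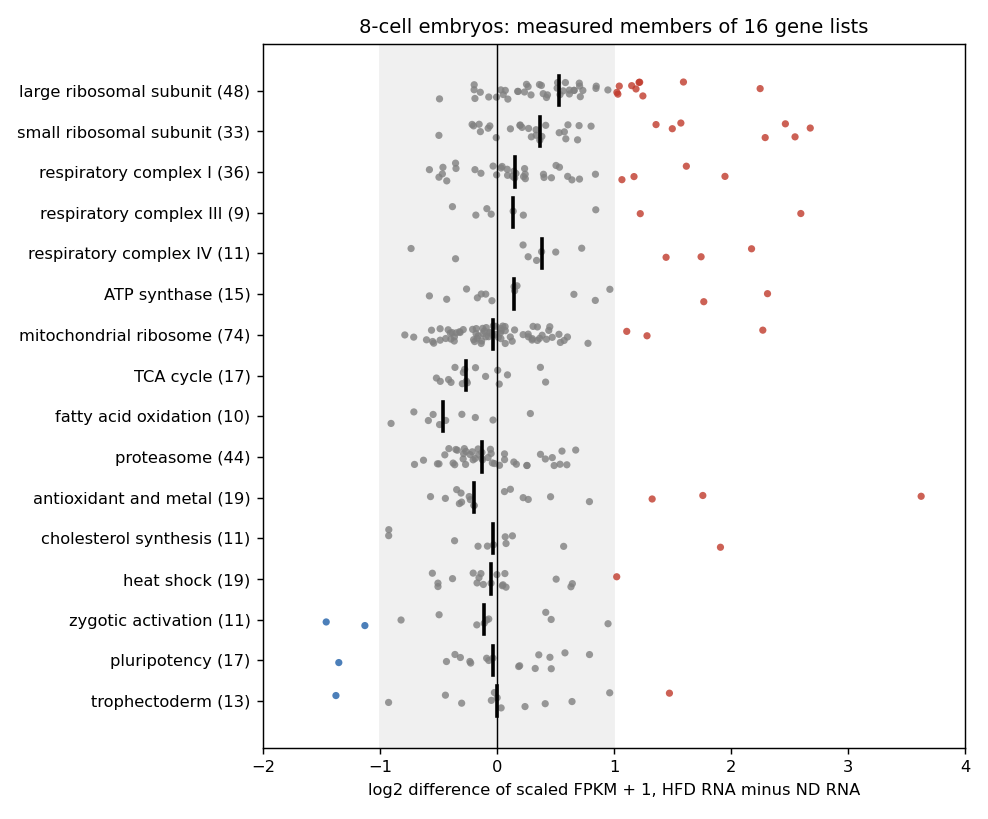
Log2 difference (HFD RNA minus ND RNA, scaled FPKM plus 1) of each measured member of 16 gene lists in 8-cell embryos; each point is 1 gene, the black bar is the list's median and the number of genes is in brackets. Red points are past 1 and blue points past -1. Both ribosomal subunits lie mostly to the right, with medians of 0.53 and 0.36, and fatty acid oxidation to the left at -0.47.

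Other parts of the translation machinery were less one-sided. Mitochondrial ribosomal proteins, which translate the mitochondrial genome, had 34 of 74 members above 0 and a median of -0.04. The 3 of them past 1 were Mrpl52 (14.7 and 59.4 FPKM), Mrpl54 (44.0 and 85.9) and Mrpl20 (45.1 and 78.0). Among 43 initiation factor genes, 21 were above 0 and only Eif3k, a subunit of eIF3, was past 1, at 9.60 and 41.9 FPKM (2.33), with 8.16 and 8.36 in blastocysts. Of 11 elongation and release factor genes, 8 were above 0 and none was past 1 in either direction. Snrpf, a core protein of spliceosomal particles (5.97 and 22.6 FPKM), and Hnrnpl, a splicing regulator (6.92 and 14.4), were the only 2 of 37 splicing genes past 1. Polr2i, a small subunit of RNA polymerase II, was at 26.2 and 61.8 FPKM (1.53).

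Hosts of small nucleolar RNAs, long non-coding genes whose introns carry the RNAs that guide modification of ribosomal RNA, included 2 of the 40 largest upward differences. Snhg1 was at 21.9 and 90.0 FPKM (2.32) and Snhg12 at 5.95 and 17.5 (1.72). Over all 7 measured genes of that kind, a group formed after these values were seen, 6 were above 0 with a median of 0.46, and the most abundant, Snhg6, was at 184 in both libraries (0.33). The largest difference downward was that of Snora78, itself a small nucleolar RNA, at 642 and 13.8 FPKM (-5.12). Its listed locus (chr17:24719531-24719965, mm10) is the same as that of Snhg9, its host, which is listed at 0 in both libraries. Reads of host and guest cannot be told apart there, and the blastocyst values of Snora78 were 207 and 177 FPKM. Of 1115 listed small RNA genes, 2 were measured, the second being the host gene Mir17hg (14.0 and 6.75 FPKM, -0.65), so the embryo libraries say little of this class.

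Genes of the respiratory chain and ATP synthase, which together make ATP in the mitochondrial inner membrane, leaned to the higher side, with a few small subunits past 1. Of 74 measured members, 48 were above 0, 11 were past 1 (14.9%) and none past -1, and the median was 0.16, but it was -0.17 without scaling, where 28 were above 0. In complex I, which oxidises NADH, 4 of 36 were past 1: Ndufs5 (16.1 and 51.8 FPKM), Ndufa3 (68.3 and 168), Ndufa1 (51.7 and 93.1) and Ndufs6 (62.4 and 104). In complex III Uqcr11 was at 28.7 and 142 FPKM (2.60) and Uqcrh at 144 and 268 (1.22). In complex IV, cytochrome c oxidase, Cox7c was at 136 and 491 FPKM (2.17), Cox6b1 at 151 and 401 (1.74) and Cox5b at 102 and 221 (1.44). In ATP synthase Atp5j2 was at 5.75 and 26.1 (2.31) and Atp5d, whose listed locus overlaps 48 others, at 20.8 and 58.2 (1.77). These 11 encode small proteins. Abundant members lay on both sides of 0: Cox6c (1444 and 1618 FPKM, 0.50) and Atp5k (750 and 1063, 0.84) above it, and Cox5a (1889 and 1169, -0.36), Uqcrq (1908 and 1332, -0.18) and Atp5g1 (1706 and 1310, -0.04) below. The 51 members with a blastocyst mean of 300 FPKM or more had a median of 0.14, and the other 23 a median of 0.24. Of the 11 genes past 1, 10 were above 0 in blastocysts, with a median of 0.46. Over all measured members, 32 of 36 were above 0 there in complex I, 1 of 3 in complex II and 6 of 9 in complex III. In complex IV it was 10 of 11 and in ATP synthase 13 of 15. The blastocyst medians, in the same order, were 0.56, -0.02, 0.12, 0.47 and 0.56. The genes past 1 thus did not stand out from the whole group at that stage. Genes of the mitochondrial genome itself were not analysed here.

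Enzymes that feed the chain were mostly below 0 among the measured genes. In fatty acid oxidation 1 of 10 measured genes was above 0, the median was -0.47 and it ran from -0.80 to -0.40 over the 4 other scalings. With genes of lower level counted in, the lean was smaller: at a mean of at least 1 FPKM 8 of 20 were above 0 with a median of -0.11, and with no filter 8 of 23 with a median of -0.26. Eci2, an isomerase for unsaturated chains, was at 26.6 and 10.8 FPKM (-0.91), Etfa, which carries electrons from the dehydrogenases, at 165 and 79.6 (-0.71), and Acadm, the medium-chain dehydrogenase, at 283 and 149 (-0.59). In blastocysts 6 of 9 of these genes were above 0, so the lean was not shared there. In the TCA cycle 5 of 17 genes were above 0 with a median of -0.26, and Mdh2 was at 561 and 346 FPKM (-0.36). The median was below 0 under each of the other 4 scalings, none of which raised values enough to change that. Sdhb, Sdhc and Sdhd of this list belong to complex II and are also counted among the respiratory chain genes. In blastocysts 6 of the 17 were above 0, with a median of -0.11. No gene of either list was past -1. Hibch, an enzyme of valine breakdown that is in neither list, was at 20.9 and 5.65 FPKM (-1.41). In the proteasome 15 of 44 genes were above 0, with a median of -0.13, and none was past 1 or -1.

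Cytoplasmic actin and a thymosin stood out from the rest of the cytoskeleton. Actb was at 38.8 FPKM after ND RNA and 220 after HFD RNA (2.81), and at 426 and 285 in blastocysts, so its 8-cell ND value was the low one among the 4 libraries. Tmsb4x, which holds actin monomers, was at 16.6 and 34.4 FPKM (1.33) and at 269 and 1062 in blastocysts. Actg1, the other cytoplasmic actin, was at 114 and 93.0 FPKM (0.04). Of 20 measured genes of this list 10 were above 0, and no other was past 1. Cfl1, which severs filaments, was its most abundant member at 935 and 619 FPKM (-0.26).

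Lipid genes went both ways. Insig1, which holds back cholesterol synthesis when sterol is plentiful, was at 5.76 and 19.6 FPKM (1.91). Among the enzymes of the pathway Fdft1, the most abundant, was at 117 and 87.4 (-0.08), and of 11 genes of the list only Insig1 was past 1 and none past -1. Plin2, which coats lipid droplets, was at 15.4 and 5.20 FPKM (-1.10), while the fatty acid binding protein genes Fabp3 (22.0 and 34.8, 0.96) and Fabp5 (17.7 and 27.8, 0.95) were close to 1. Slc3a2, the heavy chain of amino acid transporters, was at 28.5 and 65.6 FPKM (1.50). Ctsc, a lysosomal protease, was the most abundant gene on the lower side, at 1121 and 436 FPKM (-1.03), and it was lower in blastocysts as well (107 and 57.5).

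**Figure D3:**
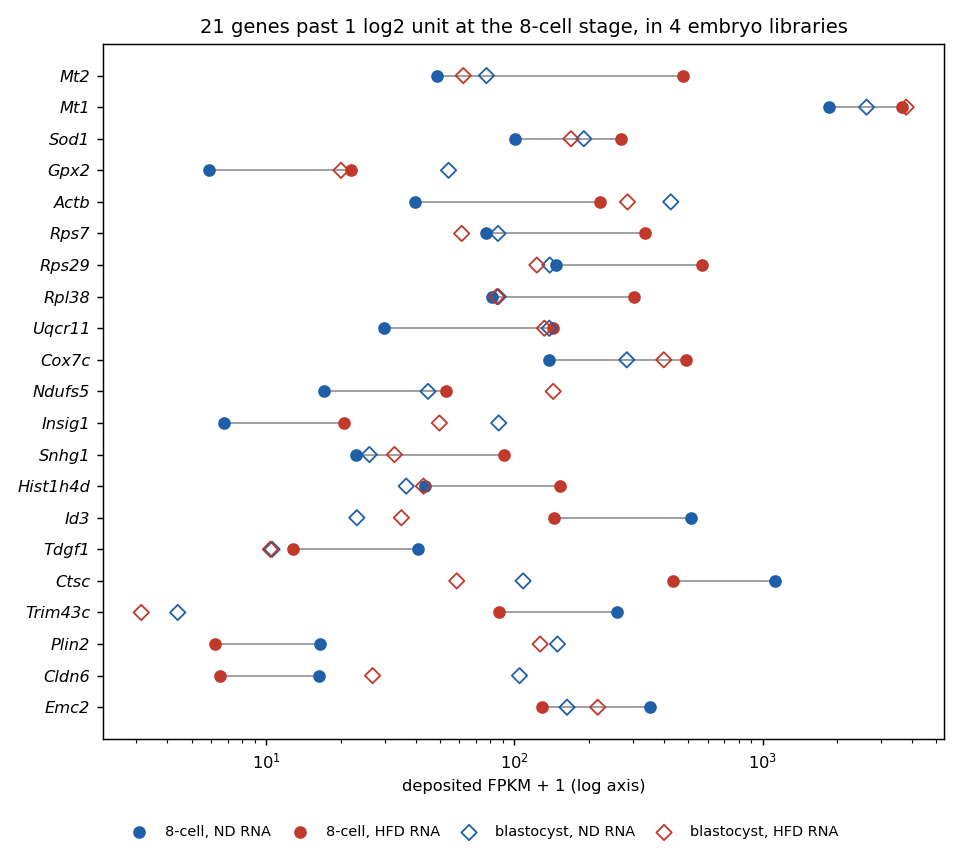
Deposited FPKM plus 1 (log axis) of 21 genes past 1 or -1 at the 8-cell stage, in the ND RNA (blue) and HFD RNA (red) libraries of 8-cell embryos (filled circles, joined by a line) and blastocysts (open diamonds). For Mt2, Rps7, Rps29, Rpl38, Snhg1 and Hist1h4d the 8-cell HFD point lies apart from the other 3, and for Actb and Uqcr11 the 8-cell ND point does.

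Several genes of signalling and of the first lineages were among the 38 lower genes. Id3 (chr4:136143822-136145392, mm10), a target of BMP signals that blocks basic helix-loop-helix factors, was at 516 FPKM after ND RNA and 143 after HFD RNA (-1.51), against 22.2 and 34.0 in blastocysts. Tdgf1, the co-receptor of Nodal also called Cripto, was at 39.9 and 11.8 FPKM (-1.35). These 2 were the only measured genes of 30 listed for BMP, Nodal and Id signalling, and both were past -1. Plet1, a surface protein of early trophoblast, was at 44.3 and 12.9 FPKM (-1.38), and the trophoblast gene Ly6a stood the other way at 26.6 and 60.0 (1.47). Over 13 trophectoderm genes 7 were above 0, 1 was past 1 and 1 past -1, and the median was 0.00. Cldn6, a claudin of the first epithelium, was at 15.3 and 5.51 FPKM (-1.02) and was lower in blastocysts too (104 and 25.8), while Cldn4 and Cldn7 differed by 0.34 and 0.53.

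Pluripotency genes showed little difference apart from Tdgf1. Of 17 measured members 8 were above 0, and the median was -0.04. It was 0.03 with the scaling over genes of at least 50 FPKM and 0.07 over the 16 members at 10 FPKM or more in both libraries. Dppa5a, the most abundant, was at 6871 and 7498 FPKM (0.46), Spic at 1037 and 801 (-0.04), Dppa2 at 921 and 686 (-0.09) and Sall4 at 551 and 323 (-0.43). Pou5f1, the core factor Oct4, was at 15.0 and 9.95 FPKM (-0.23), and Nanog at 25.9 and 16.3 (-0.31).

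Genes of early zygotic activation, which are expressed from the 2-cell stage and decline later, had a few members past -1. Of 11 measured members 3 were above 0, and Ube2dnl1 (45.2 and 12.4 FPKM, -1.46) and Tdpoz2 (19.6 and 6.62, -1.13) were past -1. The homeobox gene Obox6, the most abundant of them, was at 2422 and 1360 FPKM (-0.50). Trim43c, of a small family expressed before the blastocyst stage, was at 259 and 86.0 FPKM (-1.25), and its paralogs Trim43b and Trim43a were at 901 and 487 (-0.55) and at 1011 and 667 (-0.26). Reads of these paralogs may be shared. The list's median was -0.11 and stayed below 0 under the other 4 scalings, none of which raised values enough to change that. At a mean of at least 1 FPKM, however, 9 of 18 members were above 0 (median -0.03). With no filter it was 20 of 37 (median 0.02), with 4 past 1 and 3 past -1. By contrast the 10 marker genes of the 2-cell embryo, such as the Zscan4 genes, summed to 1.75 FPKM after ND RNA and 5.96 after HFD RNA, none of them above 1.45 FPKM in either library. Aurkc, a kinase of oocyte meiosis, was at 11.6 and 35.6 FPKM (1.85), and Crxos, a homeobox gene of the early embryo, at 1244 and 2394 (1.28).

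Of 8 measured imprinted genes, which are expressed from 1 parental copy, 4 were above 0. Phlda2, which restrains placental growth, was at 167 and 276 FPKM (1.06), and Gnas, with overlapping transcripts of both parental copies, at 19.1 and 31.3 (1.01). Sgce was at 14.7 and 5.56 (-0.96) and Snrpn at 103 and 46.3 (-0.81). Among genes of DNA methylation, Dppa3, which protects maternal methylation after fertilisation, was at 7651 and 8359 FPKM (0.46) and Dnmt3l, the cofactor of the new methyltransferases, at 31.2 and 38.7 (0.63), and none of the 5 measured was past 1. Hist1h4d, a histone H4 gene, was at 42.7 and 152 FPKM (2.14), the only one of 9 histone genes past 1, while H2afz was at 3370 and 2614 (-0.03).

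The measured genes of a row on chromosome 4 lay together on the lower side. It was found by looking along the chromosomes after the values were known, and so is a description only. Between Gm13212 and Gm13157 (chr4:145617146-147809788, mm10), 9 genes were measured, and for 7 clone names among them, such as Gm13242 (Zfp980) and Gm13051 (Zfp987), RefSeq gives a zinc finger protein name. All 9 were below 0, from -1.13 to -0.28, with a median of -0.97, and all 9 stayed below 0 under the 4 other scalings. None of these scalings raised values enough to reverse a difference of -0.28, so that outcome was fixed. Of 9 further genes listed between them, each under the mean of 10 FPKM, 7 were below 0 and 2 above. Gm13157 was at 49.5 and 17.8 FPKM, Zfp534 at 28.7 and 10.0, Gm13212 at 32.2 and 11.1, and Gm13154, the most abundant, at 135 and 81.6. Of all 3526 windows of 9 consecutive measured genes this one had the lowest median, and the lowest outside its stretch was -0.65. The window length equals the row's own count of measured genes, and the same values led to the row. The rank is therefore description and not support. In blastocysts all 9 were again lower after HFD RNA in deposited FPKM, summing to 263 and 172 there and to 384 and 188 in 8-cell embryos. Deposited values are unscaled, and the median log2 ratio of the blastocyst libraries before scaling was -0.19. Only 5 of the 9 reached a mean of 10 FPKM in blastocysts. After scaling all 5 were below 0, with a median of -0.65. These zinc finger genes resemble each other, so reads may be shared among them and they are not 9 separate measurements. Of the 38 lower genes 8 lie on chromosome 4, which holds 244 of the 3688 measured genes, and 4 of these 8 are members of this row.

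**Figure D4:**
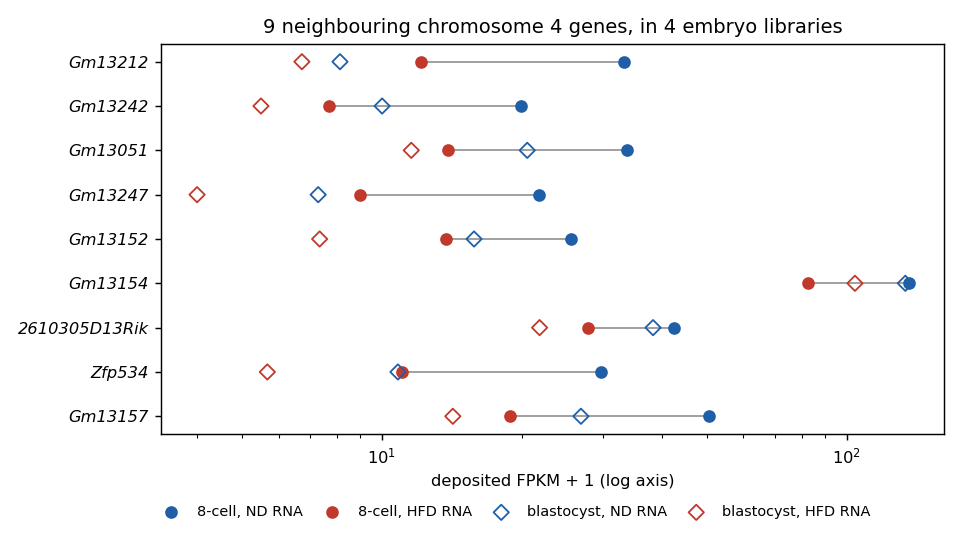
Deposited FPKM plus 1 (log axis) of the 9 measured neighbouring genes on chromosome 4, in chromosome order from top to bottom, with symbols as in the plot of 21 genes. In each row the HFD RNA point lies left of the ND RNA point at both stages.

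Short genes were over-represented among the higher genes, although 58 of the 121 with a span were 5 kb or longer. The median genomic span in RefSeq was 4852 bases for the higher genes, 13336 for the lower genes and 15209 for all measured genes with a span (121 of 134, 35 of 38 and 3473 of 3688 matched). Of genes under 2 kb 13.6% were past 1, of 2 to 5 kb 8.57%, of 5 to 20 kb 3.09% and of 20 to 100 kb 0.921%. On the lower side the shares past -1 were 3.90%, 1.02%, 0.702% and 1.07%, and 31.4% of the lower genes were under 5 kb, beside 52.1% of the higher genes and 18.5% of all. The median difference was 0.34 under 2 kb and -0.07 at 20 to 100 kb. The same held with ribosomal, mitochondrial ribosomal and respiratory genes left out: 7.59% of 527 genes under 5 kb were past 1, against 1.84% of 2718 longer ones. In those 2 sets the blastocyst medians were 0.01 and -0.09. On the higher side the share past the limit thus fell with span up to 100 kb. On the lower side it was raised only under 2 kb (6 of 154 genes), and at 2 to 5 kb it was near the 1.03% of all measured genes. The part of span in the differences of the ribosomal and respiratory lists was not tested. FPKM of short transcripts rests on few fragment positions, and the fragment sizes of the libraries are not given in the sources used here.

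**Figure D5:**
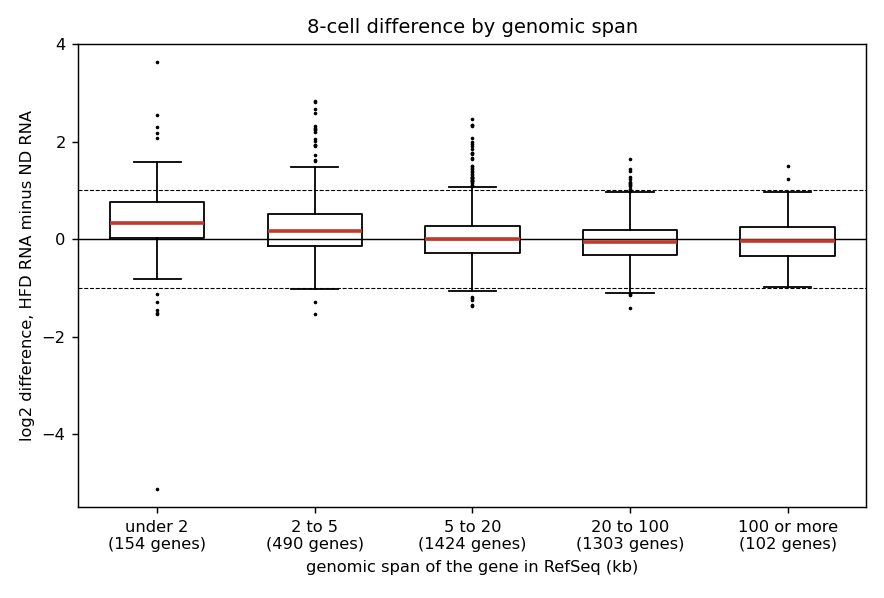
Log2 difference (HFD RNA minus ND RNA) of measured 8-cell genes by genomic span in RefSeq; boxes give quartiles with the median in red, whiskers reach 1.5 interquartile ranges and points lie beyond them. Medians go from 0.34 under 2 kb to -0.07 at 20 to 100 kb, and the dashed lines mark 1 and -1.

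The sex of the pooled embryos is not given by the labels, and sex-linked genes differed between the pools. Eif2s3y, on the Y chromosome, was at 19.3 FPKM after ND RNA and 7.75 after HFD RNA, and Ddx3y at 6.02 and 2.34, while Xist, expressed from the inactive X of females, was at 3.73 and 6.41. Blastocysts stood the other way, with Eif2s3y at 15.1 and 20.8 and Xist at 6.40 and 5.11. Over 125 measured genes of the X chromosome the median was 0.03. The make-up of 5 embryos by sex and the injected RNA cannot be told apart here.

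Blastocysts gave a second, separate pair of libraries. Of the 134 higher genes 104 were measured there, and 75 of these (72.1%) were above 0, beside 46.2% of all 3157 genes measured at both stages. Of the 104, 8 (7.69%) were past 1 in blastocysts, beside 1.24% of all. They were Ndufs5, Tmsb4x, Ly6a, Apoc2, 5430416N02Rik, Rab26os, Ccrn4l and Amd1. Apoc2, an activator of lipoprotein lipase, was at 8.08 and 16.6 FPKM at the 8-cell stage and at 25.7 and 55.1 in blastocysts. Amd1 and Amd2, which make the polyamine precursor and share 1 listed locus, went opposite ways, at 58.3 and 93.3 against 87.8 and 23.3, and their sum was 146 and 117 FPKM. In blastocysts Amd1 was at 0.0271 and 58.6 FPKM and Amd2 at 99.9 and 9.19. How reads were shared between these entries is not given, so the values of both are uncertain at both stages. Of the 38 lower genes 23 were measured in blastocysts, and 13 of these (56.5%) were below 0, beside 53.8% of all, a share near that of all genes, and Cldn6 and Amd2 were the ones past -1 there. By deposited FPKM plus 1, 34 of the 134 higher genes were at least 2-fold higher in the 8-cell HFD library than in each of the other 3 embryo libraries. In the 8-cell ND library 20 were at most at 0.5 times the other 3, and 80 were in neither class. Of the 38 lower genes, the 8-cell HFD library stood apart in this way for 13 and the ND library for 18. These genes were chosen by their 8-cell difference, which largely sets 1 of the comparisons. The share over all measured genes was not counted.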

How the data were processed

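Small RNA of sperm, RNA of pooled embryos and RNA and DNA of islets were measured in the series, and the embryo libraries and the sperm libraries were used here. The authors deposited FPKM per gene symbol for each embryo library, the unit named per the file headers, made with TopHat2 2.0.8b and Cufflinks on mm10 per the submitters' processing notes. Sperm files hold deposited counts of each distinct sequence, with no molecular identifiers, and intervals on them cover counting error only. Totals were 10368455 reads for the ND and 10605324 for the HFD fraction of 30 to 40 nt, and RPM is over these totals. Steps in the FPKM did not give whole reads, so embryo depth is unknown, and the precision of single values with it.

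Tables were joined by symbol, leaving out 4 entries of symbols listed more than once and 5 genes with a failed status in an 8-cell library. The libraries were scaled, by equal and opposite factors, to a median log2 ratio of 0 over the measured genes, 1 FPKM was added as a pseudocount, and a difference of 1 log2 unit was the limit. Listed starts plus 1 give coordinates. RefSeq (GRCm38.p6) supplied names, spans and promoters. The calculation was tested on simulated data, with Python 3.11.15, pandas 2.3.3, numpy 2.4.6 and scipy 1.17.1.

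Genes were named if among the 40 largest differences in either direction (clone names passed over), if list members past 1 or among the 4 most abundant of a list, or if in a list of fewer than 6 measured members. The text names part of these, with some genes added after their values were seen (Slc39a1, the Snhg group, the Trim43 paralogs, the genes that illustrate Fabp, claudin and oxidation groups, and the chromosome 4 row). Members and all 56 lists were chosen with earlier results of these data known. Alternatives were other scalings, pseudocounts, filters on low values, and leaving out overlapping or short genes. Islet files were not used. The values of 1 gene counted in these lists are not reported here.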

Additional observations from a re-analysis of the deposited data

Results flagged for a closer look

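Of the genes measured at both stages, 4 were past 1 at the 8-cell stage and past -1 in blastocysts, in 1 library per group, and the difference between the stages was not tested. Gpx2, a glutathione peroxidase, differed by 2.20 at the 8-cell stage (4.85 and 20.9 FPKM) and by -1.26 in blastocysts (53.3 and 19.01 FPKM). Phlda2, an imprinted restrainer of placental growth, differed by 1.06 (167 and 276 FPKM) and by -1.32 (84.5 and 29.1). Ppp1r14a, an inhibitor of myosin phosphatase, differed by 1.04 (7.84 and 13.7 FPKM) and by -1.02 (109 and 46.6). Hspb1, a small heat shock protein, differed by 1.02 (112 and 181 FPKM) and by -1.10 (599 and 245).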

How the results depend on the processing

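With 134 higher, 38 lower and 17 of 38 lists with most members above 0, and 98 named genes past 1, values that moved by over 1.5 times were these. Without scaling there were 72 higher and 183 lower genes and 4 such lists. Equal summed FPKM gave 71 lower genes, and the median ratio over genes of at least 50 FPKM gave 28 such lists. A pseudocount of 10 FPKM gave 77 higher and 9 lower genes and left 64 named genes past 1. A mean of at least 1 FPKM gave 428 higher and 170 lower genes and 28 lists, no filter 504, 203 and 29, and a mean of at least 30 FPKM 72 and 13, with 58 named genes past 1 of the 58 still measured. Asking for 10 FPKM in both libraries, chosen after seeing the data, gave 21 lower genes. Filters change how many genes are tested; for the others the cause was not tested. No named gene past 1 changed sign under any of the 12 alternatives, but none of them could reverse a difference of 1 log2 unit. Filters left values as they were, a pseudocount keeps the sign, and the widest change of scaling undid a shift of -0.34. Of 455 list shares recomputed, 23 left the exact 95% binomial interval of the share. That interval treats the genes of a list as independent, which genes of the same libraries are not. It is also wide for small lists, from 0.253% to 44.5% for the 10 genes of fatty acid oxidation. Staying inside it therefore says little. Another scaling moved the median of all genes by -0.32 (none), -0.11 (equal sums), -0.02 (equal upper quartile) and 0.06 (genes of at least 50 FPKM), and some list medians near 0 changed sign with it. Only the last raised it, so a value further below 0 than that rise could not turn positive by scaling. No paired analysis was possible because each embryo group is 1 library. Depth is unknown, so values under 10 FPKM in 1 library, as for 17 of the lower genes, have no known precision.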

Other observations

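Several other small proteins were past 1 upward at the 8-cell stage, named here after their values were seen. Romo1, a small mitochondrial membrane protein, was at 165 and 369 FPKM (1.49). Rbx1, the RING subunit of cullin ubiquitin ligases, was at 27.4 and 47.2 (1.09), and the dynein light chain genes Dynll1 and Dynll2 were at 41.6 and 72.0 (1.11) and at 14.7 and 26.6 (1.14). Polr2l, a small subunit shared by the RNA polymerases, was at 263 and 517 (1.31), and Lsm7, of the ring that binds U6 RNA, at 149 and 245 (1.05). Bex1, an X-linked gene, was at 59.3 and 137 FPKM (1.52), while Trap1a, also on the X chromosome, was at 71.5 and 27.7 (-1.01).

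Abundant genes on the lower side were few. Emc2, of the membrane protein insertion complex, was at 351 and 128 FPKM (-1.12), Wdr61, of the Paf1 and SKI complexes, at 397 and 152 (-1.04), and Seh1l, of the nuclear pore, at 103 and 38.5 (-1.07). In blastocysts Emc2 was at 162 and 216 FPKM, Wdr61 at 378 and 300, and Seh1l at 43.4 and 22.0.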
